A study of Rattus norvegicus with 16 samples.

Results

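Spared nerve injury (SNI) was compared with sham surgery in the lumbar spinal dorsal horn of rats that lack LPA4. Of the 16 libraries in the series, 8 belong to this comparison: 4 from knockout (KO) rats after SNI and 4 from KO rats after sham, all taken 28 days after the operation. The members were chosen by the genotype and operation in the sample titles and column headers, and not by any measured value. The other 8 libraries, 4 WT sham and 4 WT SNI, entered the same model and so shared in its filter, scaling and estimate of the spread. Their own SNI effect is set beside that in KO. All 4 groups share the tissue, the day and poly(A) selection, and the labels used here give no strain, sex, age or knockout allele.

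SNI is a rat model of lasting neuropathic pain in which some branches of the sciatic nerve are cut and a neighbouring branch is left intact. The dorsal horn holds the synapses of sensory fibres onto spinal neurons, together with astrocytes, microglia and oligodendrocytes, and glial cells there are known to respond to injury of the peripheral nerve. LPA4 is a G protein-coupled receptor for lysophosphatidic acid, a lipid messenger that acts through a family of such receptors.

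The titles of the 4 KO sham samples carry "WT" where the operation should stand. The matching column headers read KO sham, and the series design names no operation besides sham and SNI. Nothing in the labels ties a library to a rat of its own, so the p-values reflect variation among libraries that may be partly technical. The count table identifies genes by Ensembl ID alone, and 0 of its 30560 IDs could be paired with a symbol. The level of the targeted gene and the marker genes of the tissue were therefore not examined. As a description that needs no name, exactly 1 ID was at 0 counts throughout the 8 KO libraries while each WT library held 10 or more, and 0 IDs did the opposite. That ID was matched to no symbol, so it does not tell whether the targeted gene was lost. Results are given for 15237 IDs that passed the filter on low counts, and 4 of them are named.

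KO SNI replicate 1 stood apart from the rest, so the main counts of IDs and the SNI effects of named IDs are given with and without it. The KO libraries held 17130951 to 28090152 counts, and this library had the highest total. Its median correlation with the other 7 KO libraries was 0.973, against 0.980 to 0.987 for the others. Among 13115 IDs with an average level of 1 or more on the log2 scale of CPM, counts scaled to the library's total, 313 were over 2-fold above the mean of the other 3 KO SNI libraries in it and 62 were over 2-fold below. In the other 7 KO libraries, 16 to 69 IDs lay that far above their own group and 16 to 124 that far below. The excess in KO SNI replicate 1 was thus mainly of IDs that were high in it.

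**Figure D1:**
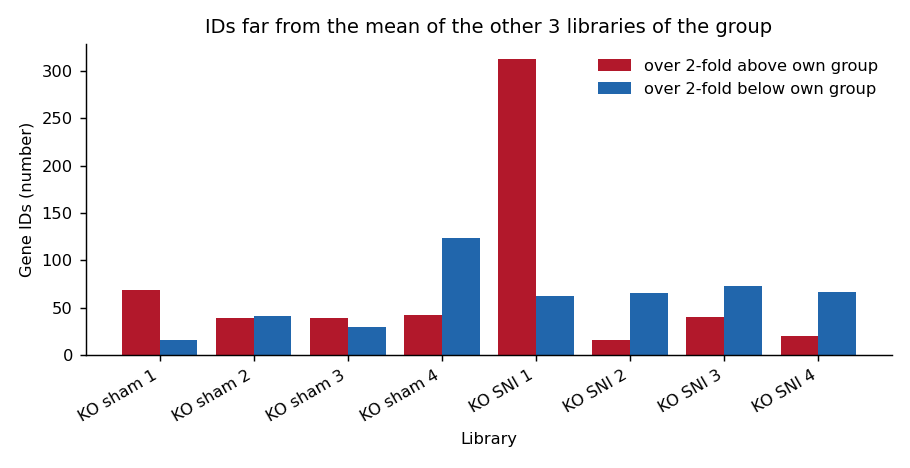
Number of gene IDs (vertical axis) that lay over 2-fold above (red) or below (blue) the mean of the other 3 libraries of the same group, for each of the 8 KO libraries (horizontal axis). KO SNI replicate 1 has 313 IDs above its group, and no other KO library has more than 69.

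After SNI, 16 IDs rose in KO dorsal horn and none was called lower. A called ID is one with an adjusted p under 0.05 in edgeR's quasi-likelihood test, and the 16 are 0.105% of the 15237 IDs tested. Their log2 fold changes ran from 0.58 to 3.49 with a median of 1.15, against a median of 0.0022 over all IDs tested, and 9 of the 16 rose by over 2-fold. Their adjusted p values were 0.00264 to 0.0398. In all 16, each SNI library lay above each sham library, as it did for 2.49% of all IDs tested. The 16 were chosen by the same contrast, so their separation is a description and adds nothing to the test. In bulk tissue, a change in the number of cells of a type and a change in RNA per cell cannot be told apart.

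ENSRNOG00000012804 had the smallest p. Its level in KO sham replicates 1 to 4 was 23.7, 22.4, 21.7 and 24.9 CPM, and in KO SNI replicates 1 to 4 it was 84.8, 76.7, 56.3 and 48.9 CPM. The sham values lay close together, the SNI values spread widely, and the groups were far from overlapping. The mean rose from 23.2 ± 1.42 to 66.7 ± 16.9 CPM (SD, n = 4 each). On the log2 scale the change was 1.52 (SE 0.18), at an edgeR adjusted p of 0.00264. Without KO SNI replicate 1 the SNI mean was 60.6 ± 14.4 CPM (SD, n = 3) and the log2 fold change was 1.39 (edgeR adjusted p = 0.0128).

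ENSRNOG00000012749 rose from 38.0, 29.4, 27.8 and 29.7 CPM in the KO sham libraries to 85.2, 91.0, 71.0 and 64.0 CPM in the KO SNI libraries, in the order of their replicate numbers. Replicate 1 was the highest of the sham group, and replicates 1 and 2 were the higher pair after SNI. The log2 fold change was 1.32 (SE 0.16, edgeR adjusted p = 0.00264), and 1.27 without KO SNI replicate 1 (edgeR adjusted p = 0.013). The ID with the next smallest p, which is not named, had 52.6 to 68.0 CPM in KO sham and 113 to 184 CPM in KO SNI. Its log2 fold change was 1.38 (SE 0.17, edgeR adjusted p = 0.00314), and 1.27 without KO SNI replicate 1 (edgeR adjusted p = 0.013). These 3 IDs were the only ones of the 16 called in every one of the 30 alternative fits.

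**Figure D2:**
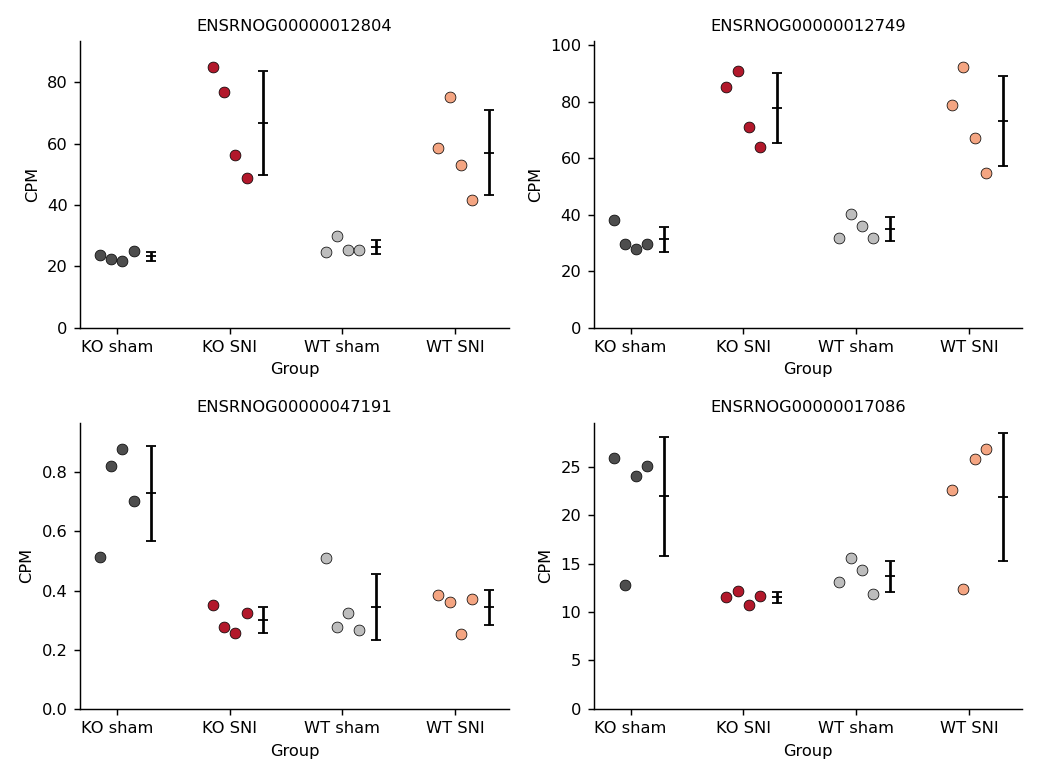
TMM-scaled CPM (vertical axis, from 0) of the 4 named IDs in each library of KO sham, KO SNI, WT sham and WT SNI (horizontal axis), points in replicate order, with the mean ± SD (n = 4) to the right of each group. ENSRNOG00000012804 and ENSRNOG00000012749 are higher in every SNI library of both genotypes, while ENSRNOG00000047191 and ENSRNOG00000017086 have lower means after SNI in KO.

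The other 13 called IDs covered a wide range of levels. Over the 16, mean levels in KO sham ran from 0.129 to 114 CPM with a median of 13.4 CPM, against a median of 19.3 CPM over all IDs tested. The largest fold belonged to the scarcest of them, which had 0.0586 to 0.251 CPM in KO sham and 0.608 to 2.56 CPM in KO SNI, which is a rise of 3.49 on the log2 scale (SE 0.51). Its lowest sham library held 1 count, so its fold is the least precise of the 16. Among the more abundant ones, 1 ID went from 27.3 to 53.0 CPM in KO sham to 96.1, 115, 169 and 252 CPM in KO SNI. This was a rise of 2.07 on the log2 scale (SE 0.34), at an edgeR adjusted p of 0.0305. The smallest fold belonged to an ID with 45.0 to 59.7 CPM in KO sham and 70.3 to 82.1 CPM in KO SNI. Its log2 fold change was 0.58 with an SE of 0.10, the smallest SE of the 16.

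Summed over the 16 IDs, the level was 456, 366, 369 and 382 CPM in KO sham replicates 1 to 4 and 1069, 893, 724 and 686 CPM in KO SNI replicates 1 to 4. The order of the libraries recurred across the IDs. KO SNI replicate 1 held the highest SNI value for 14 of the 16 and replicate 2 for the other 2, while the lowest SNI value was in replicate 3 or 4 for 14. Among the sham libraries, replicate 1 was the highest for 12 of the 16. Over all IDs tested, KO SNI replicate 1 held the highest SNI value for 36.1%, replicate 3 or 4 the lowest for 43.8%, and KO sham replicate 1 the highest sham value for 24.7%. The 16 IDs therefore graded the SNI libraries in much the same order, with replicate 1 at the top. Of the 16, 1 was among the 313 IDs over 2-fold above the group in that library, which were 2.39% of the 13115 IDs at that level.

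**Figure D3:**
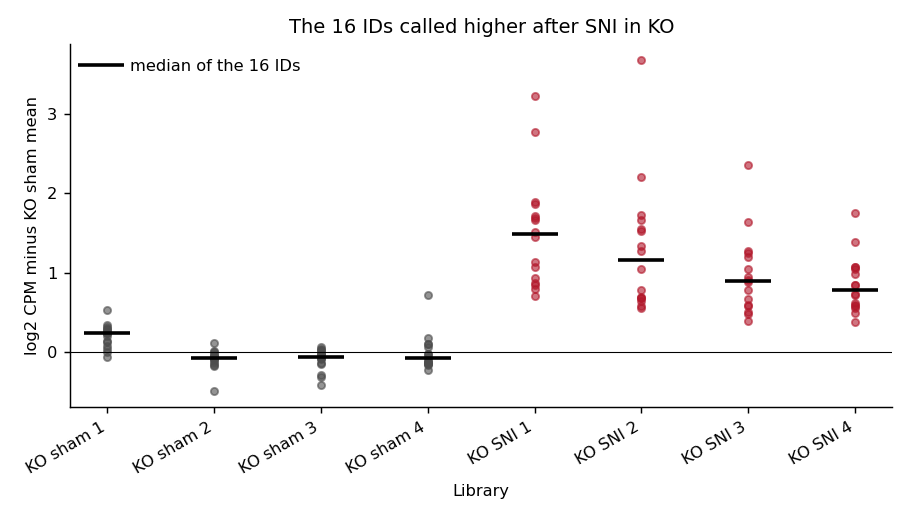
Log2 CPM minus the KO sham mean of the same ID (vertical axis) for the 16 IDs called higher, in each KO library (horizontal axis), with sham libraries in grey, SNI libraries in red and a bar at the median of the 16. The medians of the SNI libraries all sit above those of the sham libraries, and the medians of KO SNI replicates 1 and 2 sit above those of replicates 3 and 4. Points of different IDs overlap between the groups.

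Without KO SNI replicate 1, 3 of 15312 IDs were called, which is 0.0196%, and these 3 were among the 16. All 16 remained higher, with log2 fold changes of 0.51 to 3.37 (median 0.96), each smaller than with all libraries. All 16 also kept an unadjusted p under 0.05 (largest 0.000209), while their adjusted p values ran from 0.0128 to 0.178. The 16 had been called with these same remaining libraries in the fit, so this is not independent of their choice. Removal of another library could lower the count as much. It was also 3 without KO sham replicate 2, KO sham replicate 3 or KO SNI replicate 2, and 4 without KO sham replicate 4. Removing WT sham replicate 1 left 5 and so did removing WT SNI replicate 1, and it was 6 without WT sham replicate 3 and 9 without WT SNI replicate 3. The count rose to 31 without KO sham replicate 1 and to 33, of which 32 were higher, without WT SNI replicate 2. WT libraries act on this count only through the shared estimate of the spread, the scaling and the filter. Fitted to the 8 KO libraries alone, edgeR called 4 IDs (0.0269%), all higher, of which 3 were among the 16.

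The balance of higher and lower IDs moved more with KO SNI replicate 1 than with any other KO library. With all libraries, 216 IDs were over 2-fold higher in the fit (1.42% of those tested) and 30 over 2-fold lower (0.197%). Without KO SNI replicate 1 these counts were 109 (0.712%) and 73 (0.477%). Leaving out any other single KO library gave 226 to 307 higher and 31 to 49 lower. Past 1.5-fold, 636 IDs were higher (4.17%) and 119 lower (0.781%), against 447 (2.92%) and 237 (1.55%) without KO SNI replicate 1. Of the 93 IDs that were over 2-fold higher and had an average log2 CPM of 1 or more, 64 were among the 313 that stood over 2-fold above the group in that library. In the other 3 KO SNI libraries the median difference of the 313 from sham was -0.07 on the log2 scale, and 127 of them (40.6%) lay above the sham mean, against 48.8% of all IDs at that level. The 313 were chosen for standing above those same 3 libraries, which favours low values there. An unadjusted p under 0.05 for a rise in the full fit was found for 22 of the 313 (7.03%), against 3.32% of all IDs at that level. KO SNI replicate 1 is part of the SNI mean in that fit, so the choice of the 313 favoured a larger share. Without that library such a p was found for 5 of the 313, and for 2.98% of all IDs tested, which include IDs below that level. Here the choice of the 313 favoured a smaller share.

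**Figure D4:**
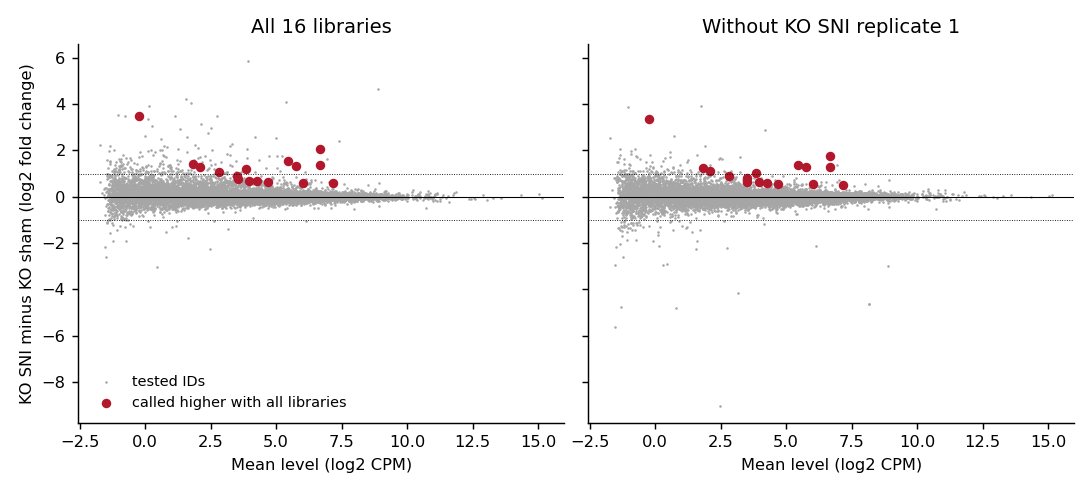
Log2 fold change of KO SNI against KO sham (vertical axis) by mean level in log2 CPM (horizontal axis) for the tested IDs, with all 16 libraries (left) and without KO SNI replicate 1 (right). Red points are the 16 IDs called higher with all libraries and dotted lines mark 2-fold. With all libraries 216 IDs lie above the upper line and 30 below the lower one, and without KO SNI replicate 1 the numbers are 109 and 73.

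At an unadjusted p under 0.05, edgeR gave 565 higher IDs (3.71%) and 178 lower IDs (1.17%), together 4.88% of those tested. The joint share was no larger than the 0.05 that the threshold gives on average without any difference, so an unadjusted p alone does not show a change in any 1 of these IDs. The higher ones had a median log2 fold change of 0.59 and a median sham level of 4.71 CPM. The lower ones had a median log2 fold change of -0.27 and a median sham level of 24.4 CPM, so they were the more abundant and changed by less. By level, the share of higher IDs was 6.13% of 2122 IDs up to 1 log2 CPM, 7.04% of 2615 between 1 and 3, 3.12% of 4749 between 3 and 5, 1.88% of 4310 between 5 and 7, and 1.53% of 1441 above 7. The share of lower IDs was 0.902% to 1.38% in the same classes. Without KO SNI replicate 1 the shares of higher IDs in these classes, from low to high level, were 4.85%, 5.01%, 2.57%, 1.97% and 0.833%, and those of lower IDs were 0.625% to 2.60%. KO SNI replicate 1 held the highest SNI value for 360 of the 565 higher IDs (63.7%), against 36.1% of all IDs tested. KO SNI replicate 3 held the lowest SNI value for 81 of the 178 lower IDs (45.5%), against 25.3% of all IDs tested. Both libraries enter the contrast that chose these lists.

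Without KO SNI replicate 1, the counts at an unadjusted p under 0.05 were 457 higher (2.98%) and 316 lower (2.06%), together 5.05%. Of the 565 and 457 higher IDs, 346 were in both lists, 61.2% of the first and 75.7% of the second. Of the 178 and 316 lower IDs, 125 were in both, 70.2% of the first and 39.6% of the second. Other libraries moved these counts too. Without KO sham replicate 4 they were 375 higher and 114 lower, and without WT sham replicate 2 they were 746 higher and 318 lower. The SNI and sham values did not overlap for 379 IDs with SNI higher (2.49%) and 176 with SNI lower (1.16%). With 3 SNI libraries, which separate more easily by chance, the counts without KO SNI replicate 1 were 632 (4.15%) and 516 (3.39%). Leaving out any other KO library gave 475 to 713 higher and 286 to 436 lower.

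No ID was called lower after SNI in KO rats by edgeR over all libraries, and the lower IDs are given as values. DESeq2 called 4 lower (0.0263% of IDs tested) beside 94 higher (0.617%). Limma voom called 0 lower, and limma voom with sample quality weights called 1 lower (0.00656%) beside 22 higher (0.144%). With KO SNI replicate 1 left out, DESeq2 called 41 higher and 3 lower, and limma voom called 3 higher and 0 lower. Over all libraries, the 4 and the 1 were all among the 10 lower IDs with the smallest p in edgeR. Those 10 had log2 fold changes of -3.02 to -0.25 (median -0.79) and edgeR adjusted p values of 0.112 to 0.487. Their mean sham levels were 0.729 to 101 CPM, and in 6 of the 10 the SNI and sham values did not overlap, as for 1.16% of all IDs tested with SNI lower. The 10 were chosen by the same contrast, so this is a description. All 10 were also lower without KO SNI replicate 1, each at an unadjusted p under 0.05. They had been ranked with 7 of the same 8 libraries, so this is not independent of their choice.

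ENSRNOG00000047191 had the smallest p among lower IDs. Its level was 0.514, 0.821, 0.880 and 0.702 CPM in KO sham and 0.350, 0.276, 0.255 and 0.324 CPM in KO SNI, in replicate order. Every SNI value lay below every sham value, although the lowest KO library held only 6 counts. The log2 fold change was -1.25 (SE 0.28, 95% confidence interval -1.85 to -0.65, edgeR adjusted p = 0.112), and -1.33 without KO SNI replicate 1 (edgeR adjusted p = 0.277). It was called in none of the 29 alternatives that retained it, with adjusted p values of 0.0853 to 0.445.

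ENSRNOG00000017086 was at 25.9, 12.8, 24.0 and 25.1 CPM in KO sham and at 11.6, 12.1, 10.8 and 11.7 CPM in KO SNI. KO sham replicate 2 lay beside the SNI libraries, just above the highest of them, and the other 3 sham libraries were about 2-fold higher. The log2 fold change was -0.93 (SE 0.22, edgeR adjusted p = 0.157), and -0.93 without KO SNI replicate 1 (edgeR adjusted p = 0.406). It was called lower in 2 of the 30 alternatives, DESeq2 (adjusted p = 0.0106) and edgeR without WT SNI replicate 2 (adjusted p = 0.0454), and its adjusted p values over all alternatives ran from 0.0106 to 0.576. The next lower ID by p was more abundant and tighter, with 54.0 to 63.6 CPM in KO sham and 42.7 to 52.6 CPM in KO SNI. Its log2 fold change was -0.32 (SE 0.08, edgeR adjusted p = 0.157), and -0.39 without KO SNI replicate 1 (edgeR adjusted p = 0.111). It was called lower by DESeq2 (adjusted p = 0.0147) and was the 1 ID that limma voom with sample quality weights called lower (adjusted p = 0.0371).

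Fitted to the KO libraries alone without KO SNI replicate 1, edgeR called 5 IDs higher (0.0334%) and 2 lower (0.0134%). Both lower IDs took separate levels that crossed the groups. The first had 9.26 to 10.7 CPM in the 4 KO sham libraries, 8.02 CPM in KO SNI replicate 1 and at most 0.0394 CPM in KO SNI replicates 2 to 4. In WT it ranged from 0 to 20.3 CPM in sham and from 0 to 8.31 CPM in SNI. The second had 12.96 to 26.4 CPM in KO sham, 22.5 CPM in KO SNI replicate 1 and 0.638 to 1.09 CPM in the other KO SNI libraries, with 0.750 to 12.9 CPM in WT sham and 0.845 to 11.4 CPM in WT SNI. With all 16 libraries neither was among the 10 lower IDs with the smallest p. With the WT libraries kept in the fit, edgeR without KO SNI replicate 1 called 0 IDs lower. EdgeR thus made the 2 lower calls only with both KO SNI replicate 1 and the WT libraries left out. The KO libraries alone were not fitted without another KO SNI library. Whether the 3 IDs that DESeq2 called lower without KO SNI replicate 1 include these 2 is not given here.

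Some IDs were detected in 1 KO group only. The 4 KO sham libraries held 0 counts for 101 IDs with over 3 counts in KO SNI, and the reverse held for 45 IDs. Of the 101, 6 had a count in each KO SNI library, with 5 to 18 counts over the group. Of the 45, 2 had a count in each KO sham library, with 6 to 11 counts over the group. None of these 8 passed the filter, so none was tested, and all 6 had counts in WT sham.

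**Figure D5:**
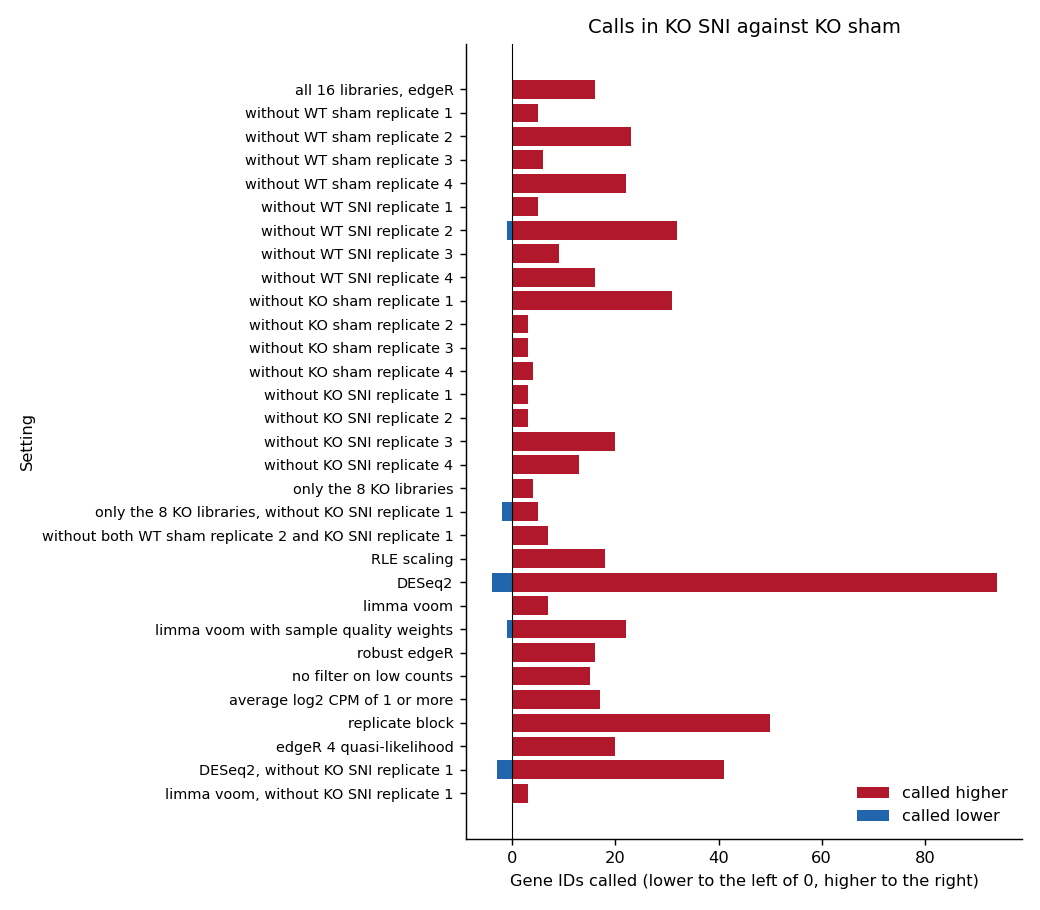
Number of IDs called in KO SNI against KO sham at an adjusted p under 0.05 (horizontal axis, higher to the right of 0 in red and lower to the left in blue) for each setting (vertical axis). EdgeR over all 16 libraries calls 16 higher, leaving out single libraries gives 3 to 32 higher, and DESeq2 calls 94 higher and 4 lower.

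WT libraries, none of which enters the KO means, give each ID a second measurement of the SNI effect. All 16 IDs called in KO were higher after SNI in WT, with log2 fold changes of 0.27 to 2.92 (median 0.92). Without WT sham replicate 2, which had the lowest total of the series (15790243 counts), the values were 0.33 to 2.92 (median 0.997). Of the 16, 8 were also among the 12 IDs called in WT (0.0788% of IDs tested). Summed over the 16, the level was 390 to 507 CPM in WT sham and 651 to 977 CPM in WT SNI, again without overlap. For ENSRNOG00000012804, WT sham held 24.7 to 29.7 CPM and WT SNI 41.7 to 75.1 CPM. For ENSRNOG00000012749 the ranges were 31.7 to 40.4 and 54.9 to 92.2 CPM.

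With all libraries, the higher and the lower IDs of KO differed in how they fared in WT. Of the 565 IDs higher in KO at an unadjusted p under 0.05, 427 (75.6%) were also higher after SNI in WT, where 49.7% of all tested IDs were. Of the 178 lower ones, 90 (50.6%) were also lower in WT, where 50.3% of all tested IDs were. Their median log2 fold change in WT was 0.27 for the higher IDs and -0.0011 for the lower. Without WT sham replicate 2 these shares were 83.4% and 56.7%, against 49.6% and 50.4% over all tested IDs. With the lists drawn without KO SNI replicate 1, they were 71.1% and 34.2%. For the lower IDs the share ran from 41.8% to 71.9% when another single KO library was left out, so it had no stable value, whereas for the higher IDs it ran from 69.1% to 85.2%. Without KO SNI replicate 3 the shares lay close together, at 77.2% for the higher IDs and 71.9% for the lower. IDs are not independent of each other, and the difference between the 2 shares was not tested.

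Whether the response in KO differed from that in WT was tested by the interaction, in which edgeR called 0 of 15237 IDs (smallest adjusted p = 0.978). At an unadjusted p under 0.05 it gave 468 IDs, 3.07% of those tested, with 259 estimates above 0 and 209 below. Without KO SNI replicate 1 these counts were 392 above and 442 below, of 15312 IDs tested. Other libraries moved them too, to 417 and 290 without WT sham replicate 4 and to 162 and 153 without KO sham replicate 4. DESeq2 called 1 ID, limma voom 0, and edgeR without KO SNI replicate 1 called 0, while DESeq2 without that library called 1. Among the 16 IDs called in KO, 1 had an interaction p under 0.05, and the estimates ran from -0.03 to 0.56 on the log2 scale, 13 of them above 0. The 16 had been chosen for a large effect in KO, which favours estimates above 0. The difference, KO minus WT, was 0.40 for ENSRNOG00000012804 (95% confidence interval -0.12 to 0.92) and 0.25 for ENSRNOG00000012749 (-0.21 to 0.71). These differences were 0.26 and 0.20 without KO SNI replicate 1. The intervals include 0 and also differences of well over 0.5, so they do not show that the genotypes respond alike.

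Neither of the named lower IDs was called in WT, where their log2 fold changes were -0.05 and 0.68. ENSRNOG00000047191 was at 0.268 to 0.509 CPM in WT sham and 0.254 to 0.385 CPM in WT SNI, ranges that overlap each other and lie near those of KO SNI. KO sham was thus the group that stood higher. Its interaction was -1.20 on the log2 scale (95% confidence interval -2.09 to -0.31, edgeR adjusted p = 0.978), and -1.28 without KO SNI replicate 1. ENSRNOG00000017086 was at 11.8 to 15.5 CPM in WT sham and at 22.6, 12.4, 25.8 and 26.9 CPM in WT SNI, in replicate order. This ID took separate levels that crossed the groups. Replicates 1, 3 and 4 of both KO sham and WT SNI held 22.6 to 26.9 CPM, and all other libraries held 10.8 to 15.5 CPM. Its interaction was -1.61 (95% confidence interval -2.28 to -0.93), which edgeR did not call (edgeR adjusted p = 0.978), and it was also -1.61 without KO SNI replicate 1. DESeq2 did call it over all libraries, at -1.62 (DESeq2 adjusted p = 0.00993). Of the 10 lower IDs with the smallest p, 6 were lower in WT as well, as were 50.3% of all IDs tested. The WT log2 fold changes of the 10 were -1.27 to 0.68. An interaction p under 0.05 was found for 6 of these 10, and for 58 of the 178 lower IDs. It was also found for 94 of the 565 higher IDs, and for 3.07% of all IDs tested. The 10, the 178 and the 565 were chosen for their change in KO, which enters the interaction, so the counts are fixed in part by that choice.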

How the data were processed

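The table that the authors deposited holds expected counts (fractions arise where a read fits several genes), and 96.4% of the values were whole within a tolerance of 1e-09. Per the labels' protocols, library preparation used the TruSeq Stranded kit for mRNA. Tools named in the submitters' processing notes are fastp 0.22.0, STAR 2.7.9a and RSEM 1.3.1, with build mRatBN7.2. Annotation release, strand setting and filters were not given in the sources used here. Reads that match near-identical genes are divided between them, so such IDs are less certain. The reference table (assembly GRCr8, 47357 genes) carried an Ensembl ID for 0 genes, so no ID was matched to a symbol, sequence or position, and the 34 gene lists, the marker checks and the level of the targeted gene were not run.

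Counts were rounded. Filtering by filterByExpr in edgeR 4.0.16 with a minimum count of 10 kept 15237 IDs holding 99.97% of all counts, and 10331 IDs had 0 counts in every library. After TMM scaling, all 16 libraries entered 1 quasi-likelihood model (group means, the older form of that test, R 4.3.3). The p-values were adjusted by Benjamini-Hochberg over all IDs with a threshold of 0.05. The median SE of a log2 fold change was 0.13, and the common biological coefficient of variation was 18.0%. Library comparisons used log2 CPM with a prior count of 2. DESeq2 1.42.0 and limma 3.58.1 were alternatives. Library totals over the series were 15790243 to 28090152 counts. No 2 of the libraries agreed within sampling noise: over 120 pairs, chi-square divided by its degrees of freedom was 7.85 to 120 (IDs with a mean count of at least 10). The fit was tested on simulated counts with known changes.

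The rule for naming IDs allowed, without symbols, at most 2 higher and 2 lower, and those with the smallest p were taken. Other IDs are described by their values. The comparison, the lists and the rule were chosen with earlier results of these data known.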

Additional observations from a re-analysis of the deposited data

Results flagged for a closer look

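In 20 sets of 4 KO libraries, 5 held 1 value far from the other 3, where chance gives about 1 in 20 for independent sets. The sets here share libraries and are not independent, so the 5 do not show an excess over chance. The median correlation with the other 7 KO libraries was 0.973 in KO SNI replicate 1, against 0.987 in the other 3 KO SNI libraries, and 0.980 in KO sham replicate 4, against 0.986 to 0.987 in the other KO sham libraries. The number of IDs over 2-fold above the rest of the group was 313 in KO SNI replicate 1, against 16 to 40 in the other SNI libraries, and 69 in KO sham replicate 1, against 39 to 42. For ENSRNOG00000017086 the far value was that of KO sham replicate 2, 12.8 CPM, where the remaining sham libraries held 24.0 to 25.9 CPM. The SNI effect on ENSRNOG00000017086 differed between genotypes by -1.62 on the log2 scale in DESeq2 (adjusted p = 0.00993), and edgeR did not call this difference. This ID took separate levels that crossed the groups, as given above.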

How the results depend on the processing

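Against 16 IDs called in KO, edgeR called 3 to 33 when 1 library was left out, 4 over the 8 KO libraries alone, 7 over those without KO SNI replicate 1, and 7 with WT sham replicate 2 and KO SNI replicate 1 both left out. DESeq2 called 98 and limma voom 7, and 44 and 3 without KO SNI replicate 1. The cause of these differences was not tested. RLE scaling, robust edgeR, quality weights in limma voom, the newer quasi-likelihood form and both other filters gave 15 to 23. All 16 were among the 98 of DESeq2. With the replicate number as a block within each genotype, edgeR called 50 IDs (15 of the 16 among them). The labels do not say that a number marks a pair, and same-numbered KO libraries deviated together with correlations of 0.0638 to 0.209; 2 of the 4 KO sham libraries correlated best with their own number. In the interaction, DESeq2 called 1 ID with and 1 without KO SNI replicate 1, and the other 26 alternatives called 0. The 4 named IDs kept their direction in every alternative that tested them. The fits without a WT library other than WT sham replicate 2, with DESeq2 or limma voom without KO SNI replicate 1, over the KO libraries without KO SNI replicate 1 and with the newer quasi-likelihood form were chosen after seeing the data.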
